A study of Mus musculus with 6 samples.

Results

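The genes described here are Trp53, which encodes p53, and 9 genes that p53 is known to activate or that control it: Mdm2, Mdm4, Cdkn1a, Ccng1, Bbc3, Phlda3, Eda2r, Sesn1 and Zmat3. They were taken by gene name from the count table, 10 genes of 56748, and each has 1 entry there. The libraries are bulk RNA-seq of heart tissue from 3 transgenic mice (Pontin cTG) and 3 WT littermates. Pontin cTG mice carry a transgene of human Pontin with a flag tag, driven in cardiomyocytes by the αMHC promoter, and Pontin, encoded by Ruvbl1, is an ATPase of chromatin remodelling complexes. All mice, 10-week-old males per the study's methods, had received Ang-II at 1.5 mg/kg BW/day by mini-osmotic pump for 14 days, and no library of an untreated heart was analysed here. The labelled difference between the groups is genotype, and the effect of Ang-II on p53 genes cannot be read from them.

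p53 is a transcription factor that is kept scarce in unstressed cells because the ubiquitin ligase Mdm2, helped by its relative Mdm4, binds it and marks it for degradation. DNA damage and other stresses release p53 from this control, and it then binds a pair of half-sites near its target genes, which arrest the cell cycle, promote apoptosis, adjust metabolism and repair DNA. Mdm2 is itself a target, which closes a feedback loop. Control of p53 acts largely on the protein, so the level of Trp53 mRNA is not a measure of p53 activity, and the mRNA of its targets is the readout usually taken. In the heart the pathway is known from cardiomyocyte loss and from the limits on cardiomyocyte division.

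The annotated start regions of these genes were searched for the p53 half-site, a motif of 10 bases. The sequences are RefSeq windows on GRCm38.p6 from 250 bases before to 50 bases after a start, which exist for 9 of the 10 genes (14 windows), Zmat3 being the gene without one. The motif was read on both strands, and its letters allow more than 1 base at several positions. The motif occurred in the window of 5 of the 9 genes, 55.6%, against 9.55% of the 27025 genes with a window, and in 5 of their 14 windows, 35.7%, against 8.36% of the 32851 windows. In the wider list of 65 p53 pathway genes described further on, which includes these 10, it occurred in 16 of 55 genes with a window, 29.1%. The 5 genes were Cdkn1a, Trp53, Mdm2, Ccng1 and Sesn1. A match is a description of the letters and not evidence of binding.

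Cdkn1a was the single gene of these with a pair of matches, 2 half-sites within 13 bases of each other, which 0.0731% of all windows hold. The upstream start of Cdkn1a has the pair 73 bases before it, at chr17:29090906-29090937, with a spacer of 12 bases between the half-sites. The pair overlaps a stretch of the form CATGNNNNNNCATG, present in 0.712% of all windows, at chr17:29090931-29090944. This stretch runs from the second half-site into the bases directly after it, TGACATGTTC. Those bases differ from the motif in their first letter alone, so they were not counted as a half-site and are not wholly in capitals. Which of these stretches p53 binds was not tested. The 250 bases before this start, chr17:29090729-29090978 on the plus strand, are shown because they hold these matches, with the half-sites and the CATG stretch in capitals:
Cdkn1a upstream start: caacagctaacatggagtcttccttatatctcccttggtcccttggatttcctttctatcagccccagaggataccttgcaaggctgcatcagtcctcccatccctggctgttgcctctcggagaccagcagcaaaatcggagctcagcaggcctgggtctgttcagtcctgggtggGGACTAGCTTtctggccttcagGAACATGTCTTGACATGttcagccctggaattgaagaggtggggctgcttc
The window of the second start, 2790 bases downstream, held no half-site. The other genes had 1 half-site each, shown with 15 bases on either side and the half-site in capitals, read along the strand of the gene:
Trp53, chr11:69580284-69580293: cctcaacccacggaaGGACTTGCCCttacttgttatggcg
Mdm2, chr10:117710935-117710944: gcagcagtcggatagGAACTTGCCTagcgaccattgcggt
Ccng1, chr11:40755462-40755471: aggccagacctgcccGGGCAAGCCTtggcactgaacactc
Sesn1, chr10:41887266-41887275: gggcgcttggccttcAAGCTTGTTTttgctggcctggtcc
The windows of Mdm4, Bbc3, Phlda3 and Eda2r held no half-site, which says only that these letters are not in these windows.

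Total counts were 13194038, 12436822 and 12772244 in WT replicates 1, 2 and 3 and 14584102, 15279201 and 16888124 in Pontin cTG replicates 1, 2 and 3. Values below are normalised counts, that is, read counts put on a common library size with TMM factors, and a log2 fold change is Pontin cTG against WT with its standard error (SE) from edgeR. The labels do not state more of how the mice were paired or batched. The edgeR p-values set the group difference against the variation among these 3 and 3 hearts. That variation was estimated with information shared across all genes tested. An exact permutation test of 3 against 3 cannot give a p under 0.1.

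One library stood apart. Pontin cTG replicate 2 lay at 50.85 on the first principal component, which held 48.61% of the variance, while the other libraries lay between -23.06 and 16.16, and WT replicate 2 was the nearest to it. The study's methods state that an outlier on principal component analysis was left out, without naming the experiment, and whether that concerns these libraries is not stated. It also had the largest share of counts in long non-coding RNA, 0.706% against 0.513% to 0.571%. Across the libraries, the correlation over genes between gene length and deviation from the gene's mean was lowest in it (Spearman -0.205), where genes are not independent replicates. That feature was not particular to this library. The correlations were 0.185, 0.177 and 0.11 in WT and 0.0838, -0.205 and -0.156 in Pontin cTG replicates 1, 2 and 3. All Pontin cTG values thus lay below all WT values. The log2 fold changes of the 10 genes without Pontin cTG replicate 2 are given below, and the part these features play was not tested.

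Cardiomyocyte markers were abundant, as the label of heart tissue requires, and atrial markers were nearly absent. The 7 cardiomyocyte markers summed to 616277 to 742673 normalised counts in every library, with Myh6 the most abundant, and the sums of the 2 groups overlapped. Singly, Tnni3 (log2 fold change 0.30, SE 0.14) and Myl2 (0.24, SE 0.12) had all Pontin cTG values above WT. Actc1 (-0.11, SE 0.11) had them all below. None of the 7 passed the adjusted p, and over all genes 4.7% were higher and 3.63% lower without overlap. The 3 atrial markers (highest Myl4) summed to 9.91 to 43.7 and the 5 lymphocyte markers to 6.83 to 22.4, of which 1 was at 0 in all libraries. The sums of the 6 fibroblast markers (20610, highest gene Dcn) and of the 5 endothelial markers (15909, highest gene Kdr) were largest in Pontin cTG replicate 2, whose p53 genes also deviated most. In Pontin cTG replicate 1, the heart highest for Cdkn1a, the sums for cardiomyocytes, fibroblasts, endothelial cells, macrophages (5403, highest gene Lyz2) and erythroid cells (21216, highest gene Hbb-bs) lay inside the range of the other 5 hearts, and the smooth muscle and pericyte sum (13975, highest gene Rgs5) was the lowest, next to 14312. The same heart had the lowest lymphocyte sum (6.83, against 16.5 to 22.4, highest gene Cd79a) and the highest adipocyte sum (11.7, against 0 to 7.85, highest gene Cfd). Of the 7 macrophage markers, 5 had a log2 fold change below 0, beside 6912 of 13888 genes, and the median was -0.39. The 2 above 0 were C1qa (0.07, SE 0.23) and C1qb (0.04, SE 0.24). None of the 7 passed the adjusted p, and the sums overlapped, at 4907, 8369 and 5182 in WT and 5403, 6051 and 4127 in Pontin cTG hearts. The lowest unadjusted p was that of Mrc1 (log2 fold change -0.66, SE 0.29, unadjusted p = 0.0484, adjusted p = 0.999 by edgeR), and Csf1r had all Pontin cTG values below WT (-0.39, SE 0.18). In bulk tissue, fewer cells of a type and less RNA per cell cannot be told apart. The part of cell composition in the values of the p53 genes was not tested.

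Ruvbl1, the mouse gene of Pontin, was examined first. Its normalised counts were 216, 221 and 217 in WT and 250, 250 and 240 in Pontin cTG hearts. The groups did not overlap, with a log2 fold change of 0.18 (SE 0.12), adjusted p = 0.999 by edgeR. Because the transgene is a human cDNA, the counts of the mouse gene do not measure it directly, and how many of its reads are counted there was not tested.

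No p53 gene passed the test. Across all genes, edgeR called 0 of 13888 (0% of genes) at an adjusted p under 0.05, while 142 genes (1.02%) were higher and 143 (1.03%) lower in Pontin cTG hearts at an unadjusted p under 0.05. DESeq2 called 1 gene (0.0039% of the genes it gave an adjusted p) and limma-voom 3 (0.0216%), none of them a p53 gene. Of the 10 p53 genes, all of which passed the filter on low counts, 0 reached an unadjusted p under 0.05 in the main edgeR test, and 1, Cdkn1a, did so in DESeq2 and in limma-voom, where 0.847% and 5.83% of all genes did so in either direction. Among the edgeR alternatives, Cdkn1a did so with library size alone (305 of 13888 genes did) and without WT replicate 3 (241 of 14364). Without Pontin cTG replicate 3, Cdkn1a and Phlda3 did so, 2 of 10, beside 408 of 14206 genes. The groups of the p53 genes overlapped in every case: 0 of 10 had all Pontin cTG hearts above or below all WT hearts, against 4.7% of all genes for higher and 3.63% for lower. The log2 fold changes of the 10 genes ran from -0.22 for Zmat3 to 0.92 for Cdkn1a. Their median was 0.048, with 6 above 0 and 4 below, and the median over all genes tested was 0.0013.

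**Figure D1:**
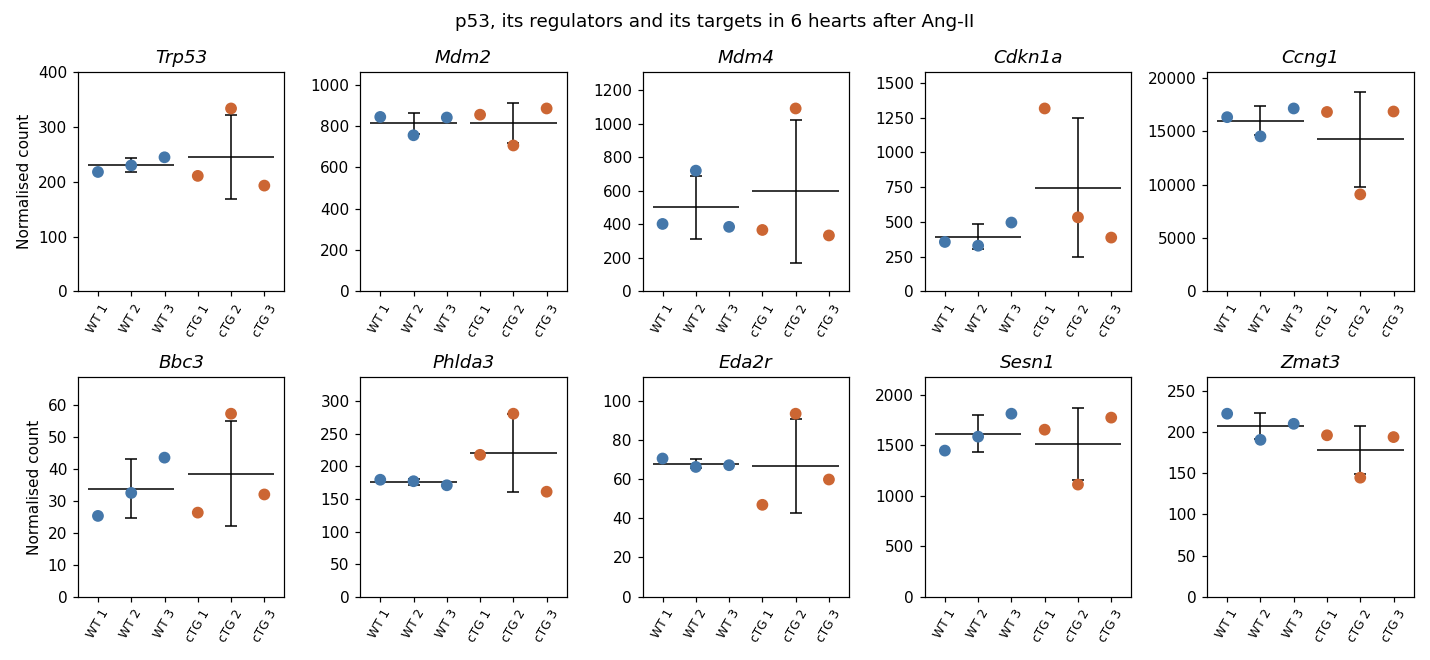
Normalised counts of the 10 p53 genes (y axis, each panel from 0) in each of the 6 hearts (x axis; WT in blue, Pontin cTG, written cTG, in orange), with horizontal lines at the group means and bars of 1 SD (n = 3). The groups overlap in all 10 panels, and Cdkn1a in cTG 1, at 1315, and Mdm4 in cTG 2, at 1093, lie far from the other hearts of their group.

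Trp53 mRNA did not separate the groups. It was counted at 218, 230 and 245 in WT (231 ± 13.4, SD, n = 3) and 211, 334 and 193 in Pontin cTG hearts (246 ± 76.7). Pontin cTG replicate 2 was the highest of the 6 hearts and replicates 1 and 3 the lowest. The log2 fold change was 0.09 (SE 0.21, 95% interval -0.38 to 0.57), adjusted p = 0.999 by edgeR, and it was -0.19 without Pontin cTG replicate 2. Trp53 lies at chr11:69580359-69591873 on the plus strand (GRCm38). A long non-coding RNA on the opposite strand overlaps 324 bases of it and took 19 counts over all libraries. Reads in the shared bases were not counted apart, here or for the overlaps of Mdm4, Cdkn1a and Sesn1 given below. Whether such reads were left out of both genes was not tested.

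Mdm2, the ubiquitin ligase that is both a target and the main inhibitor of p53, was nearly level. It had 844, 755 and 841 normalised counts in WT and 854, 706 and 884 in Pontin cTG hearts, with group means of 813 ± 50.3 and 815 ± 95.8 (SD, n = 3). This was the steadiest of the 10 genes: 88.3% of all genes tested had at least as large a range across the 6 hearts as its 0.33 on the log2 scale. The log2 fold change was 0.003 (SE 0.13, 95% interval -0.30 to 0.31), adjusted p = 0.999 by edgeR, and 0.10 without Pontin cTG replicate 2. Mdm4, which binds p53 without marking it for degradation by itself, was the opposite. Its counts were 403, 721 and 386 in WT and 367, 1093 and 334 in Pontin cTG hearts. Both libraries numbered 2 were high, and the other 4 lay close together, so the log2 fold change of 0.25 (SE 0.46) turned to -0.52 without Pontin cTG replicate 2 and was -0.17 without both. The range of Mdm4 of 1.70 on the log2 scale was reached by 5.68% of genes.

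Levels per kilobase of the length given for each gene allow the regulators to be set beside each other. The ratio of Mdm2 to Mdm4, as normalised counts per kilobase, was 6.09, 3.05 and 6.35 in WT and 6.78, 1.88 and 7.70 in Pontin cTG hearts. Per kilobase, Mdm2 was above Mdm4 in all 6 hearts, and the ratio was lowest in the 2 libraries in which Mdm4 was high. In Pontin cTG replicate 2 that order rests on the gene lengths, 5083 bases for Mdm2 and 14798 for Mdm4. Its normalised counts were 706 for Mdm2 and 1093 for Mdm4. The lengths of the transcripts expressed in these hearts were not measured. Mdm2 lies at chr10:117688875-117710758 and Mdm4 at chr1:132959484-133030561, both on the minus strand. A pseudogene overlapping Mdm4 took 2 counts.

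Cdkn1a, which encodes the cyclin-dependent kinase inhibitor p21 and is the classic arrest target of p53, had the largest difference of the 10 genes. Its counts were 356, 329 and 495 in WT and 1315, 533 and 387 in Pontin cTG hearts, or 393 ± 89.4 against 745 ± 499 (SD, n = 3). Pontin cTG replicate 1 held most of the difference, replicate 2 was just above the highest WT heart, and replicate 3 lay among the WT hearts. The log2 fold change was 0.92 (SE 0.42, 95% interval -0.03 to 1.87), with unadjusted p = 0.0561 and adjusted p = 0.999 by edgeR, and the exact permutation test gave p = 0.2. Leaving out Pontin cTG replicate 1 brought it to 0.24 (SE 0.23), and leaving out replicate 2 to 1.11 (SE 0.61). DESeq2 gave an unadjusted p of 0.0127 (adjusted p = 1.00). Over all 16 alternatives the value stayed above 0, from 0.24 to 1.23.

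The same hearts were high before normalisation. As unnormalised counts, Cdkn1a had 323, 293 and 443 counts in WT and 1347, 622 and 447 in Pontin cTG hearts. The range across the 6 hearts, 1.99 on the log2 scale, was reached by 3.15% of genes, so few genes varied as much between hearts. Cdkn1a lies at chr17:29090976-29100727 on the plus strand, where a short transcript of the opposite strand overlaps 1046 bases and took 24 counts over all libraries. As for Trp53, reads in the shared bases were not counted apart. The half-site matches shown above stand just before the upstream start of Cdkn1a.

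Ccng1, cyclin G1, an early p53 target that acts in the feedback through Mdm2, was the most abundant of the 10 genes. Its counts were 16310, 14513 and 17125 in WT and 16796, 9084 and 16840 in Pontin cTG hearts. Pontin cTG replicate 2 alone was low. The log2 fold change of -0.17 (SE 0.23) became 0.07 without that library. The ratio of Cdkn1a to Ccng1 per kilobase was 0.0216, 0.0224 and 0.0286 in WT and 0.0774, 0.0580 and 0.0227 in Pontin cTG hearts, and was higher in Pontin cTG replicates 1 and 2 than in the other 4 hearts.

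**Figure D2:**
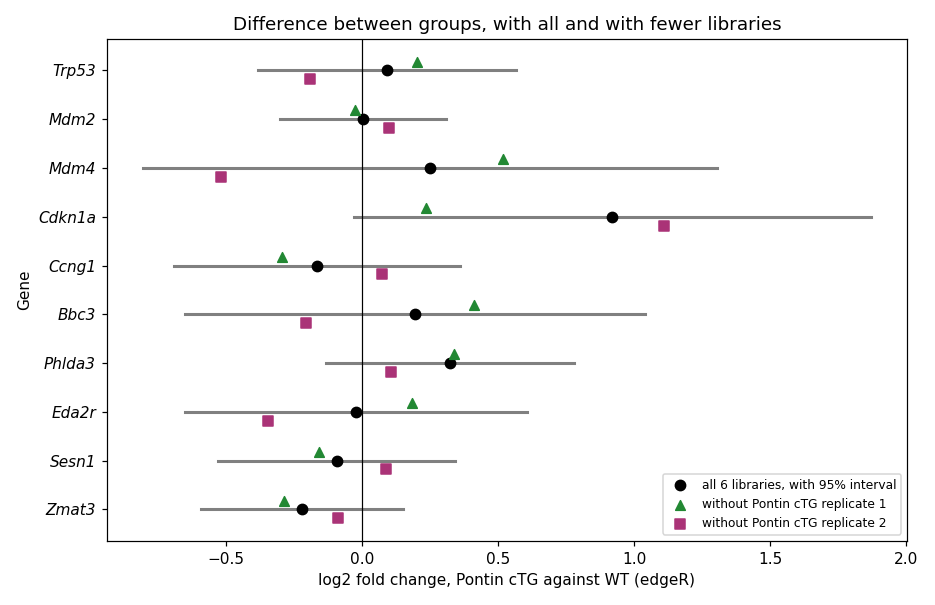
Log2 fold change of Pontin cTG against WT (x axis) for each of the 10 p53 genes (y axis), from edgeR with all 6 libraries (black, with 95% interval in grey) and without Pontin cTG replicate 1 (green triangles) or replicate 2 (purple squares). All 10 intervals include 0; Cdkn1a falls from 0.92 to 0.24 without replicate 1, and Mdm4 turns from 0.25 to -0.52 without replicate 2.

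The apoptosis targets showed no common direction. Phlda3, which restrains Akt signalling, had 179, 177 and 171 normalised counts in WT and 218, 281 and 161 in Pontin cTG hearts. The WT hearts lay close together, replicates 1 and 2 of Pontin cTG were above them and replicate 3 was below. The log2 fold change was 0.32 (SE 0.20), with unadjusted p = 0.145, adjusted p = 0.999 by edgeR and an exact permutation p of 0.4. It was 0.10 without Pontin cTG replicate 2 and 0.50 without replicate 3, with unadjusted p = 0.0170 in the latter case (adjusted p = 0.911). Bbc3, which encodes the pro-apoptotic BH3-only protein Puma, was low throughout: 25.3, 32.5 and 43.6 in WT and 26.4, 57.4 and 32.1 in Pontin cTG hearts, with a log2 fold change of 0.19 (SE 0.37) that turned to -0.21 without Pontin cTG replicate 2. Eda2r, the receptor for the ligand ectodysplasin A2, had 70.5, 66.2 and 67.1 in WT and 46.9, 93.3 and 59.8 in Pontin cTG hearts. Its WT values were tight and its Pontin cTG values fell on both sides, with a log2 fold change of -0.02 (SE 0.28). The value was -0.34 without Pontin cTG replicate 2, 0.18 without replicate 1 and -0.37 with limma-voom.

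Sesn1 and Zmat3, the genes of the 10 with roles in metabolism and RNA binding, had log2 fold changes below 0 that did not pass the test. In the wider list of that role, described further on, 5 of 12 tested genes were above 0 and 7 below. Sesn1, a sestrin that dampens oxidative stress and mTORC1, had 1446, 1584 and 1811 normalised counts in WT and 1653, 1110 and 1772 in Pontin cTG hearts, a log2 fold change of -0.09 (SE 0.19). It was 0.09 without Pontin cTG replicate 2. Zmat3, an RNA-binding protein that acts in splicing, had 222, 191 and 210 in WT and 196, 145 and 194 in Pontin cTG hearts. All 3 Pontin cTG values lay below 2 of the WT hearts, and 2 of them above WT replicate 2. The log2 fold change was -0.22 (SE 0.16, unadjusted p = 0.212, adjusted p = 0.999 by edgeR, exact permutation p = 0.3) and -0.09 without Pontin cTG replicate 2. Zmat3, Cdkn1a and Phlda3 were the 3 genes of the 10 whose sign held under all 16 alternatives. A single count fell on the transcript that overlaps Sesn1.

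The remaining positions in GRCm38 are chr11:40748552-40755311 (minus strand) for Ccng1, chr7:16308393-16318205 (plus) for Bbc3, chr1:135766119-135769136 (plus) for Phlda3, chrX:97333840-97377216 (minus) for Eda2r, chr10:41809935-41908424 (plus) for Sesn1 and chr3:32334792-32366014 (minus) for Zmat3. All 10 genes are annotated as protein coding.

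Ordered by level in WT hearts, as normalised counts per kilobase, the genes were Ccng1 (4551), Sesn1 (405), Mdm2 (160), Phlda3 (113), Cdkn1a (111), Trp53 (57.1), Mdm4 (34.0), Zmat3 (18.2), Bbc3 (15.9) and Eda2r (11.5). In Pontin cTG hearts Cdkn1a and Bbc3 stood higher in this order, with Cdkn1a next after Sesn1 at 210, above Mdm2 at 160 and Phlda3 at 141, and Bbc3 at 18.2 above Zmat3 at 15.6. Without Pontin cTG replicate 1, Cdkn1a was at 129, below Mdm2 (156) and Phlda3 (142), as in WT. Neighbours closer than the larger of their SDs were Phlda3 and Cdkn1a, and Zmat3 and Bbc3, in WT. In Pontin cTG hearts they were Cdkn1a (SD 140) and Mdm2, Mdm2 and Phlda3, Trp53 and Mdm4, Mdm4 and Bbc3, and Bbc3 and Zmat3. Ccng1 was the most abundant of the 10 genes in both genotypes.

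Most of the p53 genes had their most extreme value in the same heart. Pontin cTG replicate 2 was the highest of the 6 hearts for 5 of the 10 genes (Trp53, Mdm4, Bbc3, Phlda3 and Eda2r) and the lowest for 4 (Mdm2, Ccng1, Sesn1 and Zmat3). Over all genes tested, the same library was highest for 30.2% and lowest for 30.7%. Cdkn1a was the exception, highest in Pontin cTG replicate 1 and lowest in WT replicate 2. As deviations from the mean of a gene on the log2 CPM scale, Mdm4 was at 1.13 and Ccng1 at -0.70 in Pontin cTG replicate 2, while Cdkn1a was at 0.09 there and at 1.39 in replicate 1.

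**Figure D3:**
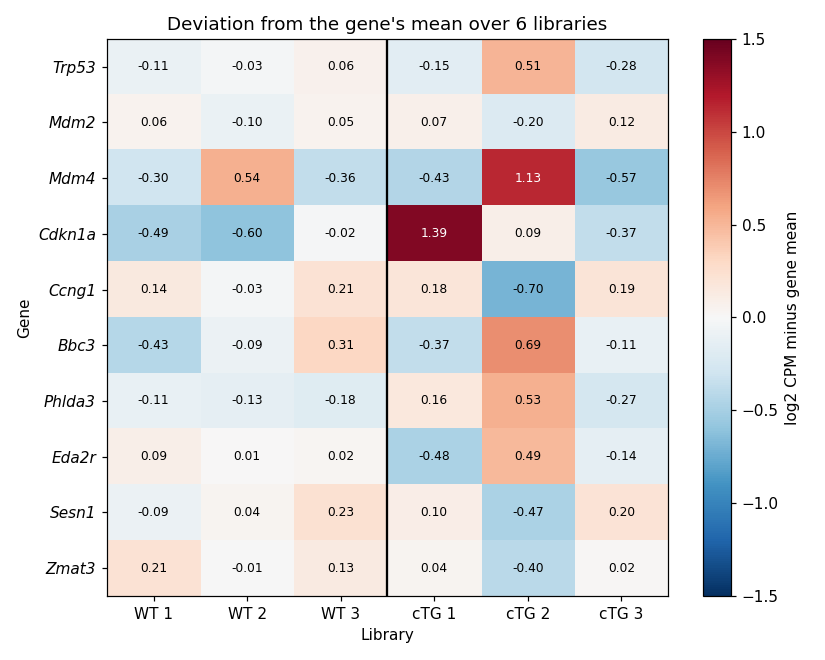
Deviation of each p53 gene (rows) from its mean over the 6 hearts, in log2 CPM, in each library (columns, WT left of the line and Pontin cTG right of it; red above and blue below the mean). The column of cTG 2 holds the extremes of 9 of the 10 genes, and Cdkn1a is highest in cTG 1, at 1.39.

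A wider list of 65 p53 pathway genes was grouped by role. Of these, 59 were tested, 29 with a log2 fold change above 0 and 30 below, with a median of -0.02. No gene passed the adjusted p and 0 of 59 had an unadjusted p under 0.05 in edgeR, beside 1.02% higher and 1.03% lower over all genes. DESeq2 gave 1 of 65, beside 0.847% of all genes, and limma-voom 6 of 59, beside 5.83%. In edgeR without Pontin cTG replicate 3, 7 of 59 did so, beside 408 of 14206 genes. Without Pontin cTG replicate 1 it was 4 of 59, beside 636 of 14211, and omitting any other library gave 0 to 2 listed genes. The 6 genes under the filter on low counts were Pmaip1, Psrc1, Rprm, Gls2, Cdkn2a and Trp73, which include the classic target Pmaip1 and the p53 relative Trp73. Groups that did not overlap were found for 2 genes higher and 2 lower, against 4.7% and 3.63% of all genes.

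By role, the medians of the log2 fold changes were -0.04 for 18 tested genes of p53 and its regulators, 0.09 for 9 of cell cycle arrest, 0.10 for 14 of apoptosis, -0.07 for 12 of metabolism, redox and RNA binding, and -0.10 for 6 of DNA repair. The median over all genes tested was 0.0013. Leaving out 1 library moved the median of the wider list between -0.09 and 0.04.

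**Figure D4:**
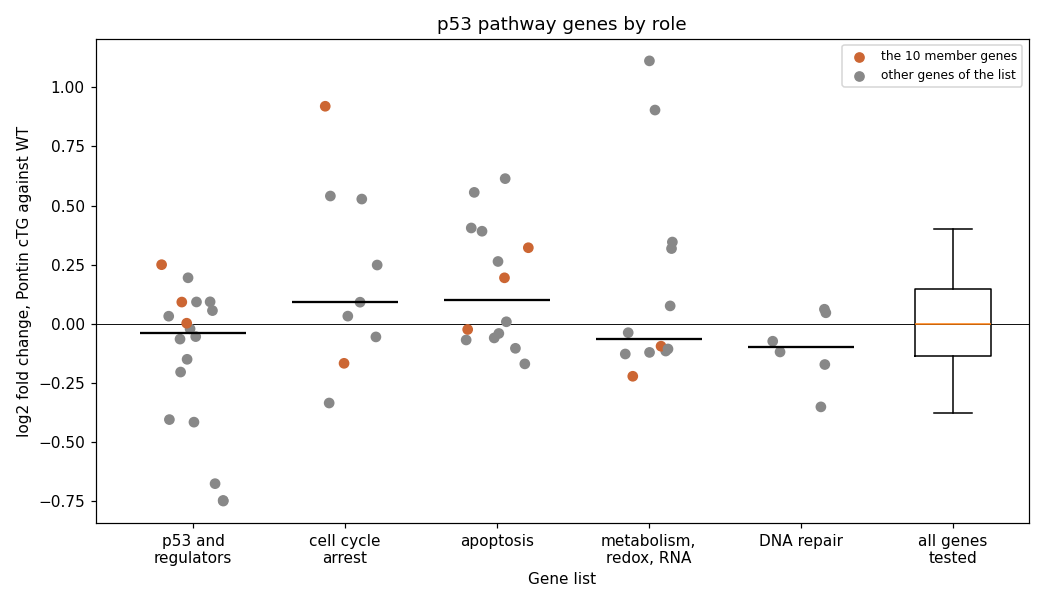
Log2 fold change of Pontin cTG against WT (y axis) for the tested genes of each role list (x axis; points, the 10 p53 genes described here in orange, others in grey; black lines, list medians), beside all 13888 genes tested (box of quartiles, whiskers to the 5% and 95% points). The medians of the lists lie between -0.10 and 0.10, and Cdkn1a at 0.92 is the highest of the orange points.

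Of the genes named by the smallest unadjusted p in the wider list, Fas, the death receptor, had 132, 179 and 193 normalised counts in WT and 231, 235 and 196 in Pontin cTG hearts. The groups did not overlap, though the highest WT and lowest Pontin cTG values were close, and the log2 fold change was 0.39 (SE 0.18, unadjusted p = 0.0541, adjusted p = 0.999 by edgeR), or 0.25 without WT replicate 1. Tnfrsf10b, another death receptor, had 35.2, 42.6 and 47.0 against 70.3, 74.5 and 39.0, with a log2 fold change of 0.56 (SE 0.30), or 0.39 without Pontin cTG replicate 2. Dcxr, an enzyme of sugar metabolism, had 85.9, 90.9 and 102 against 99.6, 122 and 132, with a log2 fold change of 0.35 (SE 0.19). Sfn (14-3-3 sigma) was the other gene whose Pontin cTG values all lay above WT, at 12.1, 19.1 and 19.0 against 19.5, 23.1 and 30.3. Its log2 fold change of 0.54 (SE 0.36) rests on few counts, and its highest WT and lowest Pontin cTG values were close.

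In the other direction, Ep300, the acetyltransferase coactivator of p53, had 863, 691 and 809 normalised counts in WT and 773, 440 and 560 in Pontin cTG hearts, with a log2 fold change of -0.42 (SE 0.20, unadjusted p = 0.0716). It was -0.24 without Pontin cTG replicate 2 and -0.65 without replicate 1. Trp63, a p53 family member, was low in all hearts, at 23.1, 14.6 and 12.3 against 10.7, 10.3 and 8.66, and its groups did not overlap. Its log2 fold change of -0.75 (SE 0.41) rests on few counts and was -0.43 without WT replicate 1. Btg2, an antiproliferative target, had 714, 537 and 843 against 505, 519 and 637, with a log2 fold change of -0.33 (SE 0.18). Leaving out WT replicate 3 gave -0.17, and leaving out WT replicate 2 gave -0.49. Polh, a translesion polymerase, was the other gene with all Pontin cTG values below WT, at 142, 131 and 130 against 116, 80.5 and 120.

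Some genes of the wider list were carried by 1 library. Hipk2, a kinase that phosphorylates p53, had 1748, 1235 and 1853 normalised counts in WT and 1645, 133 and 1253 in Pontin cTG hearts, so the low value lay in replicate 2 alone. Gdf15, a stress cytokine, had 12.1, 46.0 and 26.8 against 15.6, 158 and 8.66, and was high in the same library. Bax, the pore-forming apoptosis effector, was likewise high there, with 152, 173 and 161 in WT and 181, 337 and 125 in Pontin cTG hearts. Ddit4, an inhibitor of mTORC1 that many stresses induce, was instead high in Pontin cTG replicate 1, with 369, 305 and 630 against 1727, 279 and 439. That is the heart in which Cdkn1a was highest.

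The genes nearest to Cdkn1a in pattern were found by the root mean square difference of mean-centred log2 CPM over the 6 libraries, among 13887 genes. The nearest 5 were Depp1 (0.208), Arrdc2 (0.224), F2rl1 (0.276), Mt1 (0.286) and Abhd15 (0.304), none of them in the p53 lists. Depp1 had 204, 191 and 359 normalised counts in WT and 599, 325 and 257 in Pontin cTG hearts. Mt1, a metallothionein, had 1138, 961 and 1305 against 2264, 1450 and 902. All 5 were highest in Pontin cTG replicate 1, which follows from their choice by likeness to Cdkn1a. Among the other 9 p53 genes, likeness ranked from 1024 for Phlda3 to 13261 for Mdm4, with Mdm2 at 3758, Trp53 at 7351 and Zmat3 at 7741, the median. In the wider list the ranks reached from 70 for Ddit4 to 13868 for Gdf15.

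**Figure D5:**
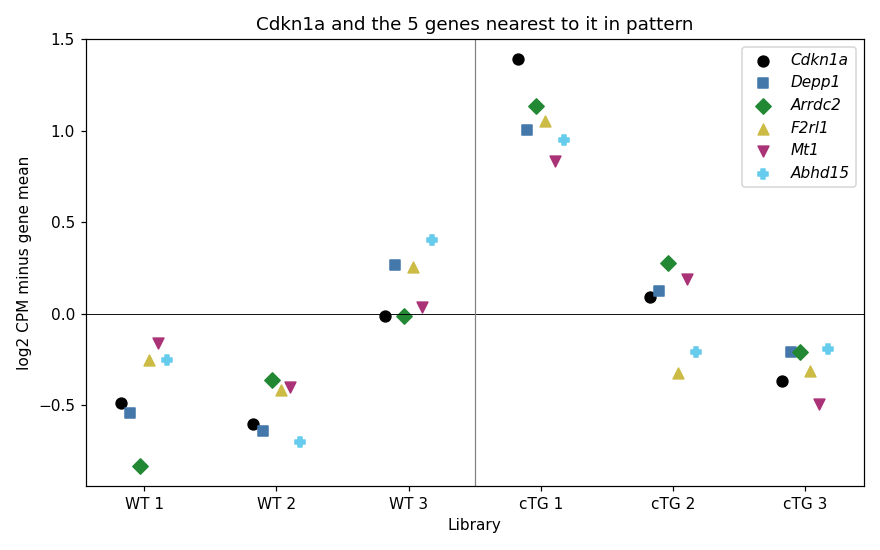
Mean-centred log2 CPM (y axis) of Cdkn1a and of the 5 genes nearest to it in pattern in each library (x axis, WT left of the line and Pontin cTG right of it; 1 symbol a gene). All 6 genes are highest in cTG 1, Cdkn1a at 1.39, and in cTG 3 all 6 lie below 0, as the choice by likeness implies.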

How the data were processed

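Hearts of 3 WT and 3 Pontin cTG mice were compared. The deposited values are whole-number counts per gene, made by the authors and not normalised. The study's methods name Trimmomatic, STAR and the mm10 genome with Gencode M25, whereas the submitters' processing notes name fastp, HISAT2, featureCounts, DESeq2 and GRCm39, without versions. The table's coordinates match GRCm38 for 1472 of 52073 shared genes, so printed positions come from GENCODE M21 on GRCm38. The kit named in the study's methods does not keep strand.

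Genes were filtered with filterByExpr (minimum count 10), scaled by TMM and tested in edgeR 4.0.16 under R 4.3.3 by quasi-likelihood (robust glmQLFit, genotype as single term), with Benjamini-Hochberg adjustment over 13888 genes. Standard errors were obtained as the absolute log2 fold change over the root of F. Exact permutation tests were two-sided. The alternatives were DESeq2 1.42.0, edgeR with the DESeq2 factors or with plain library sizes, testing without a low-count filter or with at least 10 counts in every library, leaving out mitochondrial or non-coding genes, blocking on the replicate number, limma-voom (limma 3.58.1) with sample quality weights, and omitting each library in turn. Leaving out both libraries numbered 2, and counts of genes at an unadjusted p under 0.05, were added with the values in view. The code was tested on simulated data.

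The members and lists were chosen with earlier results of these data known. Named genes are the 10 members, Ruvbl1, the 3 other listed p53 genes of smallest p on either side, and the 5 genes nearest to Cdkn1a in pattern. Mrc1, Csf1r, C1qa, C1qb, Tnni3, Myl2, Actc1, Hipk2, Gdf15, Ddit4, Bax, Sfn and Polh were named with their values in view.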

Additional observations from a re-analysis of the deposited data

How the results depend on the processing

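No member and no gene of the wider p53 list was called under any of the 16 alternatives. Genes called numbered 0 in the main test, 1 with DESeq2, 3 without a filter on low counts, 3 with limma-voom, 6 without both libraries numbered 2, and 0 to 3 with each library left out in turn (3 without Pontin cTG replicate 2). Genes at an unadjusted p under 0.05 numbered 285 in the main test, 217 with DESeq2 and 810 with limma-voom. With each library left out in turn they numbered from 122 (without WT replicate 1) to 686 (without Pontin cTG replicate 2). The median log2 fold change ranged from -0.0082 to 0.19 for the 10 genes and from -0.0852 to 0.0449 for the wider list with each library left out.

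Signs turned for 7 of the 10 genes, all with differences inside their intervals, and the cause was not tested. With limma-voom the log2 fold change was -0.10 for Trp53, -0.15 for Mdm4, -0.0301 for Bbc3 and 0.0800 for Sesn1. Without both libraries numbered 2 it was -0.19 for Trp53, -0.17 for Mdm4, 0.0105 for Ccng1, -0.23 for Bbc3 and 0.0749 for Sesn1. Mdm2 was at -0.000468 with DESeq2, -0.00417 without a filter and -0.00172 with the replicate number as a block, and Eda2r at 0.0222 with library size alone. With each library left out in turn, the range was -0.19 to 0.24 for Trp53, -0.0599 to 0.0971 for Mdm2, -0.52 to 0.60 for Mdm4, -0.304 to 0.0739 for Ccng1, -0.21 to 0.43 for Bbc3, -0.224 to 0.0865 for Sesn1 and -0.34 to 0.18 for Eda2r.

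Same-numbered libraries deviated together with correlations of 0.0772, 0.432 and 0.193. Differently numbered libraries were not correlated in this way, so these values cannot decide whether the numbers mark pairs. The main test did not take the numbers as pairs. With the replicate block 0 genes were called, and 499 had an unadjusted p under 0.05, beside 285 in the main test. The 3 hearts a group limit the precision of every value.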
